A study of Homo sapiens with 6 samples.

Results

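The translation initiation factors were described here through the 51 genes of the deposited RNA-Seq table that carry an EIF symbol with a number and are typed as mRNA, leaving out the eIF2 kinase genes whose symbols begin with EIF2AK. The whole table lists 40173 genes, of which 19756 are typed as mRNA. The cells were A549, an established human lung adenocarcinoma line. All 6 libraries came from transfected A549 cells harvested about a day later, 3 that received an siRNA against the long noncoding RNA FAM83H-AS1 (silenced) and 3 that received a negative control (control). The comparison of the groups asks which transcripts change when FAM83H-AS1 is depleted. The labels number the libraries but do not tell whether they came from separate cultures, so the p-values measure the spread between these libraries, which may be technical. A single line and an siRNA whose sequence the labels do not name limit the model.

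Initiation is the step at which a ribosome is loaded onto an mRNA and finds its start codon. eIF2 brings the initiator methionyl-tRNA as a complex with GTP, and eIF2B recharges eIF2 with GTP after each round. eIF3 is the large scaffold on the small ribosomal subunit. eIF1 and eIF1A keep the scanning subunit open until a start codon is met. The eIF4 factors select the capped 5′ end, with eIF4E binding the cap, eIF4G bridging to eIF3, and eIF4A unwinding structure with the help of eIF4B and eIF4H. The 4E-binding proteins compete with eIF4G for eIF4E when they are not phosphorylated by mTORC1. eIF5 and eIF5B complete GTP hydrolysis and subunit joining, eIF6 keeps the large subunit free, and eIF5A acts mainly in elongation and termination despite its name. Phosphorylation of the eIF2 alpha subunit, which blocks eIF2B, lowers general translation in stressed cells.

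The libraries held between 9738291 and 17742643 counts, and the initiation factor genes took 0.926% to 1.0% of them. Levels are given as counts per 1000000 of the library total, scaled by edgeR's TMM factors (CPM), and a fold change is log2 of silenced over control with its standard error (SE). FAM83H-AS1 fell from 15.9 ± 1.39 to 4.87 ± 0.617 CPM (mean ± SD, n = 3). On the log2 scale it fell by 1.70 (SE 0.15), with an adjusted p of 7.99e-05 by edgeR's quasi-likelihood test. Of the markers checked for the labelled line, KRT8 and KRT18 were abundant, but ALDH1A1 and AKR1B10, which A549 is known for, were listed at 0 and 0.843 CPM in the control mean. The summed level of the 10 epithelial and A549 markers ran from 4177 to 4724 CPM in the controls and from 3861 to 3962 CPM after silencing, but the list did not move one way. KRT18 fell (log2 fold change -0.43, adjusted p = 0.00266 by edgeR), while TXNRD1 and AKR1B10 rose (0.35 and 1.31, adjusted p 0.0256 and 0.0135). None of 8 lymphoid and myeloid markers exceeded 1 CPM in either group's mean, while 1 of 6 fibroblast and 2 of 5 endothelial markers did. The part of these differences in the results was not tested, and in bulk RNA fewer expressing cells and less RNA per cell cannot be told apart.

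Many mRNAs of the translation machinery begin with a C and an unbroken run of pyrimidines, the 5′ terminal oligopyrimidine (TOP) tract, through which mTORC1 and LARP1 control their translation and stability. A TOP-like run was taken as a C followed by at least 4 bases that are C or T, on the strand that reads as the mRNA. It had to begin within 5 bases of the RefSeq transcription start on either side, so a short run may end before that start. RefSeq promoters (GRCh38.p14) were matched for 43 of the 51 genes. The remaining genes were EIF2S2, EIF3A, EIF3CL, EIF3E, EIF3G, EIF3H, EIF3L and EIF4EBP1. The windows shown hold 15 bases before the start and 15 from it, with the run in capitals. They belong to the 5 members with the longest runs, then to EIF4EBP2 and EIF4E2, the members that rose, and last to EIF4G1, EIF5A and EIF1B, matched members that fell.
EIF3F, chr11:7987322-7987351, plus strand: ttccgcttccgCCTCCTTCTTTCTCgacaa
EIF2S3, chrX:24054941-24054970, plus strand: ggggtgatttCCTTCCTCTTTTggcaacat
EIF3D, chr22:36529152-36529181, minus strand: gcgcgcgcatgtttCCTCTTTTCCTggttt
EIF3K, chr19:38619173-38619202, plus strand: ttccgtttccaccaCCTCTTCCTgttcccg
EIF3M, chr11:32583816-32583845, plus strand: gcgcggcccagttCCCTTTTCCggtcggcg
EIF4EBP2, chr10:70404130-70404159, plus strand: ctcccgccttcgcccgCTTCCggtcgtcgt
EIF4E2, chr2:232550674-232550703, plus strand: ggtggagcggaagtcaCTCCCTgaggcagt
EIF4G1, chr3:184314591-184314620, plus strand: tctgtgcggggagccggaaatggttgtgga
EIF5A, chr17:7306984-7307013, plus strand: atgggtgggaacccgaccacactagcgcgc
EIF1B, chr3:40309692-40309721, plus strand: tcggccattttgtgcgagaagccgcagcgc

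Among the initiation factor genes, 6 of the 49 that passed edgeR's filter on low counts changed, and all by less than 1.5-fold. EIF5A, EIF4G1, EIF4EBP1 and EIF1B fell, while EIF4EBP2 and EIF4E2 rose. The genes of the cap-binding step thus moved in both directions: the scaffold EIF4G1 and the inhibitor EIF4EBP1 were lower, and the inhibitor EIF4EBP2 and the cap-binding homologue EIF4E2 were higher. These 6 make up 12.2% of the tested members, where 17% of all 15250 genes tested passed the same adjusted p of 0.05 (Benjamini-Hochberg over all genes), 8.75% higher and 8.27% lower. The difference between these shares amounts to few genes and turned around under some other settings, so nothing is read from it: 28.0% of the members against 13.3% of all genes passed with no filter on low counts, and 14.3% against 12.7% without silenced library 3. No member passed an adjusted p of 0.05 together with a fold change over 2, which 2.14% of all genes did (1.14% higher, 0.997% lower), although 17 members (34.7%) had an unadjusted p under 0.05 by edgeR, 7 higher and 10 lower, beside 32.1% of all genes (16.3% higher, 15.8% lower). DESeq2 also called 0 members past that fold and 7 (14.3%) at the adjusted p alone, beside 15.3% of all genes. The libraries of the groups did not overlap for 19 members (38.8%), 7 higher and 12 lower, beside 36.6% of all genes (19.1% higher, 17.5% lower). The median log2 fold change was 0.00 over the members and 0.00 over all genes tested, with 25 members above 0 and 24 below. EIF1AY and EIF4E1B did not pass the filter.

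**Figure D1:**
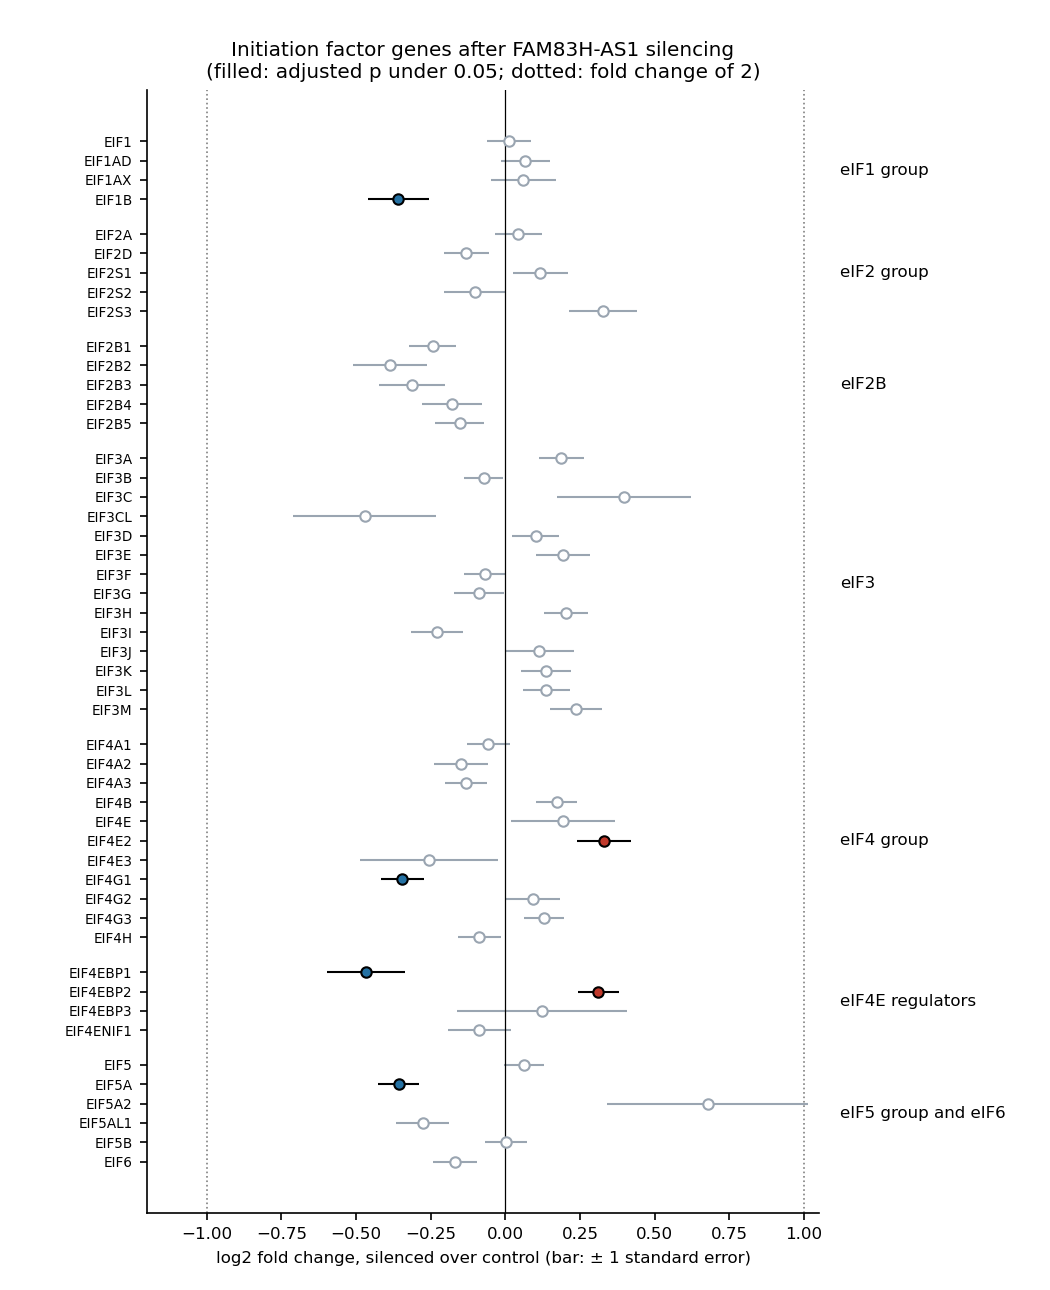
Log2 fold change (silenced over control) of the 49 tested initiation factor genes by complex, each point a gene with its SE as a bar and the filled points past an adjusted p of 0.05. The 6 filled points lie in the eIF1, eIF4, eIF4E-regulator and eIF5/eIF6 groups, the 5 eIF2B genes all lie below 0, and no gene reaches a log2 fold change of 1.

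In the eIF4 group, 11 of 12 genes were tested, of which EIF4E2 rose and EIF4G1 fell, and the median log2 fold change was -0.06. EIF4G1 (chr3:184314495-184335358, plus strand, GRCh38, 33 exons), the scaffold that joins the cap-binding protein, the helicase and eIF3, measured 800.0, 729.9 and 806 CPM in control libraries 1 to 3 and 597, 592 and 649.5 CPM in silenced libraries 1 to 3. All silenced libraries lay below all controls, and the gap between the nearest libraries exceeded the range within either group. EIF4G1 fell by 0.35 on the log2 scale (SE 0.07), from 779 ± 42.3 to 613 ± 31.7 CPM (SD, n = 3), with an adjusted p of 0.00959 by edgeR's quasi-likelihood test. The call held with any library left out except silenced library 1, without which the adjusted p was 0.0532. Its homologues did not pass the test. EIF4G2, which lacks the eIF4E-binding part and serves cap-independent initiation, had a log2 fold change of 0.09 (SE 0.09, adjusted p = 0.512 by edgeR) with 806, 959 and 929 CPM in the controls and 916, 1059.7 and 897 CPM after silencing. EIF4G3, the closest homologue of EIF4G1, measured 166, 177 and 180.1 CPM in the controls and 192, 191 and 189 CPM after silencing, which did not overlap, but its log2 fold change of 0.13 (SE 0.07) had an adjusted p of 0.211 by edgeR.

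EIF4E2 (chr2:232550052-232583644, plus strand, GRCh38), a cap-binding homologue of eIF4E known mainly as a repressor of translation, measured 55.5, 59.2 and 61.1 CPM in control libraries 1 to 3 and 75.2, 81.2 and 65.3 CPM in silenced libraries 1 to 3. The silenced libraries lay above the controls, with silenced library 3 only slightly above control library 3. EIF4E2 rose by 0.33 on the log2 scale (SE 0.09), from 58.6 ± 2.86 to 73.9 ± 8.0 CPM, with an adjusted p of 0.0313 by edgeR. Without control library 1 or 2 that p was 0.0927 or 0.0744, and without silenced library 1 or 2 it was 0.103 or 0.0919. In GENCODE 29, 1835 exonic bases of EIF4E2 overlap genes on the opposite strand (TIGD1, MIR5001 and AC073254.1), and whether the counting used strand is not given in the sources used here. EIF4E itself, the main cap-binding protein, was low at 5.96, 7.51 and 6.21 CPM in the controls and 7.23, 8.69 and 6.62 CPM after silencing. Its groups overlapped and it did not pass the test (log2 fold change 0.19, SE 0.17, adjusted p = 0.484 by edgeR). Per kilobase of exon, EIF4E stood at 0.542 ± 0.0689 and EIF4E2 at 11.2 ± 0.547 CPM in the controls (SD, n = 3), but 66.5% of the counts on EIF4E and its processed copies in the controls were assigned to the copies, and its annotated exons span 12096 bases.

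The helicase genes and their cofactors did not pass the test. EIF4A1, the major helicase, measured 319, 356 and 363 CPM in the controls and 327, 342 and 329 CPM after silencing, overlapping between groups, with a log2 fold change of -0.06 (SE 0.07). EIF4A2, its paralog, measured 86.3, 109 and 101 CPM in the controls and 86.9, 89.0 and 90.7 CPM after silencing, also overlapping, with -0.15 (SE 0.09). EIF4A1 shares sequence with 13 copies, which held 42.4% of the family's counts in the controls and 43.1% after silencing, so its level is uncertain. The libraries of EIF4A3, the helicase of the exon junction complex, did not overlap (-0.13, adjusted p = 0.228 by edgeR), nor did those of EIF4B (0.17, adjusted p = 0.114). EIF4H had -0.09 and EIF4E3 -0.26 with overlapping groups.

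Of the 4 regulators that bind eIF4E, EIF4EBP2 rose and EIF4EBP1 fell. EIF4EBP2 (chr10:70404379-70428618, plus strand, GRCh38) measured 147, 150.2 and 156 CPM in control libraries 1 to 3 and 184, 197 and 181 CPM in silenced libraries 1 to 3. The lowest silenced library stood well above the highest control. EIF4EBP2 rose by 0.31 on the log2 scale (SE 0.07), from 151 ± 4.40 to 187 ± 8.62 CPM, with an adjusted p of 0.0126 by edgeR, and the call held with each of the 6 libraries left out. EIF4EBP1, which like EIF4EBP2 is released from eIF4E once mTORC1 phosphorylates it, measured 98.9, 80.8 and 74.1 CPM in control libraries 1 to 3 and 54.1, 56.1 and 72.5 CPM in silenced libraries 1 to 3. The groups did not overlap, but silenced library 3 lay just under control library 3, and the controls themselves ranged widely. EIF4EBP1 fell by 0.47 on the log2 scale (SE 0.13, adjusted p = 0.0318 by edgeR). Without control library 1 or 2 its adjusted p was 0.102 or 0.0617, and without silenced library 1 or 2 it was 0.124 or 0.0887. EIF4ENIF1, the transporter that carries eIF4E into the nucleus, had a log2 fold change of -0.09 and the weakly expressed EIF4EBP3 one of 0.12, both overlapping between groups. The summed level of the 4 genes was 265 ± 8.32 CPM in the controls and 276 ± 8.95 CPM after silencing (SD, n = 3).

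**Figure D2:**
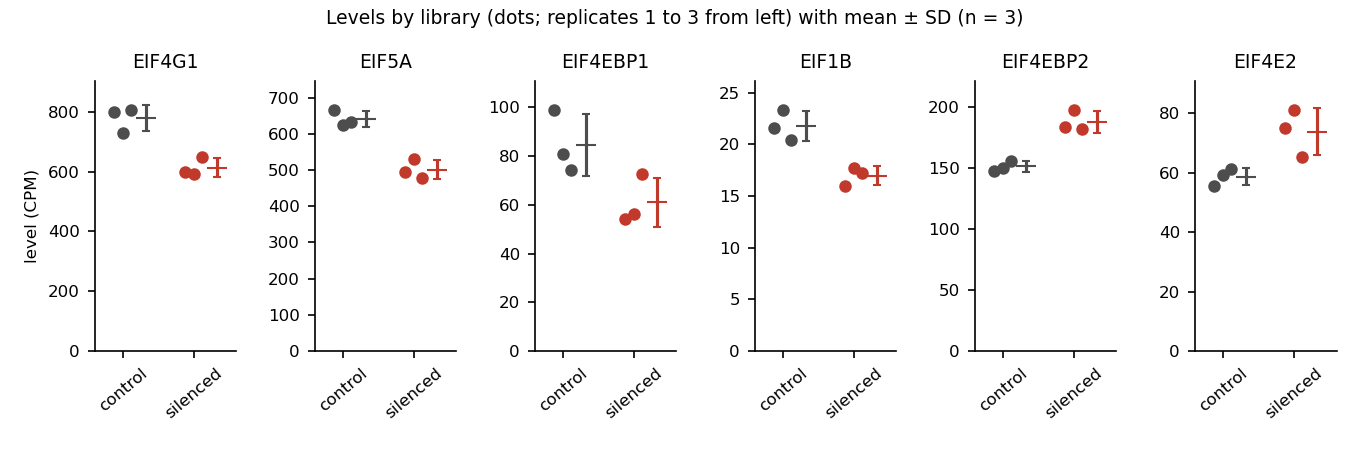
Level in CPM of the 6 initiation factor genes past an adjusted p of 0.05, each point a library (replicates 1 to 3 from the left) with the group mean and SD as a bar beside it (n = 3), and with the y axes starting at 0. EIF5A and EIF4G1 separate widely between groups, whereas for EIF4EBP1 and EIF4E2 silenced library 3 lies next to a control library.

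In the eIF5 and eIF6 group, EIF5A fell. The other 5 genes did not pass the main edgeR test, which used edgeR's filter on low counts and no covariates. EIF5A (chr17:7306999-7312463, plus strand, GRCh38), the hypusine-bearing factor that relieves stalled ribosomes, was the most abundant member per exon length, at 306 ± 10.3 CPM per kilobase in the controls and 239 ± 12.6 after silencing. It measured 666, 625 and 633 CPM in control libraries 1 to 3 and 495, 529.8 and 478 CPM in silenced libraries 1 to 3. All silenced libraries lay below all controls. The fall was 0.36 on the log2 scale (SE 0.07), from 641 ± 21.6 to 501 ± 26.4 CPM, with an adjusted p of 0.00642 by edgeR, and it passed with each library left out. The near-copy EIF5AL1 had a log2 fold change of -0.28 (adjusted p = 0.0551 by edgeR, 0.0217 without control library 1, and 0.0201 by DESeq2). EIF5AL1 also passed by edgeR with a replicate block (0.0128), genes of the type mRNA only (0.0305) and no filter on low counts (0.00758). It passed with at least 10 counts in every library too (0.0481). Since reads cannot be assigned between EIF5A and EIF5AL1 with certainty, EIF5A and its copies were also summed, which gave -0.32 with an adjusted p of 0.00775 by edgeR. EIF5A2, a paralog with counts of 10 to 41 per library, measured 1.03, 2.50 and 1.77 CPM in the controls and 2.64, 3.79 and 2.23 CPM after silencing, with a log2 fold change of 0.68 (SE 0.34, adjusted p = 0.191 by edgeR). EIF6 had -0.17 with groups that did not overlap (adjusted p = 0.133), EIF5 had 0.06 and EIF5B 0.00. The summed level of the 6 genes was 1563 ± 30.7 CPM in the controls and 1350.3 ± 12.6 CPM after silencing (SD, n = 3), and EIF5A with EIF5AL1 made up most of that sum.

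In the eIF1 group, EIF1B fell and the other 3 tested genes did not pass the test. EIF1B (chr3:40309684-40312424, plus strand, GRCh38), a close paralog of the start-codon factor EIF1, measured 21.6, 23.3 and 20.4 CPM in control libraries 1 to 3 and 15.9, 17.7 and 17.2 CPM in silenced libraries 1 to 3. The groups did not overlap. EIF1B fell by 0.36 on the log2 scale (SE 0.10), from 21.8 ± 1.47 to 16.9 ± 0.912 CPM, with an adjusted p of 0.0366 by edgeR and of 0.0858 by DESeq2. Its edgeR call held only without silenced library 2, and the adjusted p was 0.0708, 0.119 and 0.0538 without control libraries 1 to 3 and 0.133 and 0.0730 without silenced libraries 1 and 3. EIF1 measured 181, 203 and 197 CPM in the controls and 188, 205 and 193 CPM after silencing, overlapping, with a log2 fold change of 0.01 (SE 0.07). EIF1AD had 0.07 with 47.4, 53.3 and 55.9 CPM in the controls and 54.1, 56.0 and 54.2 CPM after silencing, and EIF1AX 0.06. A single processed copy, EIF1AXP1, held 56.0% of the counts on EIF1AX and that copy in the controls, so the level of EIF1AX is uncertain.

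The 5 genes of eIF2B, the exchange factor of eIF2, all had lower means after silencing, but none passed the main edgeR test. Their median log2 fold change was -0.24, where the median over all genes was 0.00. EIF2B2 measured 27.7, 29.8 and 31.1 CPM in the controls and 19.6, 27.2 and 21.1 CPM after silencing, EIF2B1 88.0, 95.4 and 95.0 CPM in the controls and 75.3, 75.2 and 84.6 CPM after silencing, and EIF2B3 32.4, 35.3 and 35.2 CPM in the controls and 23.1, 31.3 and 28.3 CPM after silencing. In these 3 genes every silenced library was below every control, with silenced library 2 the nearest to the controls for EIF2B2 and EIF2B3. EIF2B5, the catalytic subunit, measured 36.6, 34.6 and 34.2 CPM in the controls and 30.8, 33.0 and 31.0 CPM after silencing, without overlap, while EIF2B4 measured 35.0, 34.5 and 30.9 CPM in the controls and 26.3, 29.9 and 32.2 CPM after silencing and overlapped. Thus 4 of the 5 genes were lower without overlap, beside 17.5% of all genes tested (36.6% in either direction). The log2 fold changes were -0.39 for EIF2B2 (SE 0.12), -0.31 for EIF2B3 (SE 0.11), -0.24 for EIF2B1 (SE 0.08), -0.18 for EIF2B4 (SE 0.10) and -0.15 for EIF2B5 (SE 0.08). Adjusted p ran from 0.0520 for EIF2B2 to 0.248 for EIF2B4 by edgeR, 3 of the 5 had an unadjusted p under 0.05, where 32.1% of all genes did, and DESeq2 called none. EIF2B2 passed without silenced library 2 (adjusted p = 0.00807), as did EIF2B3 (0.0331), and EIF2B1 passed without silenced library 3 (0.0460). The summed level of the 5 genes was 225 ± 5.17 CPM in the controls and 189.6 ± 12.6 CPM after silencing (SD, n = 3). Exons of EIF2B1 and EIF2B2 overlap opposite-strand genes by 564 and 1262 bases in GENCODE 29.

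**Figure D3:**
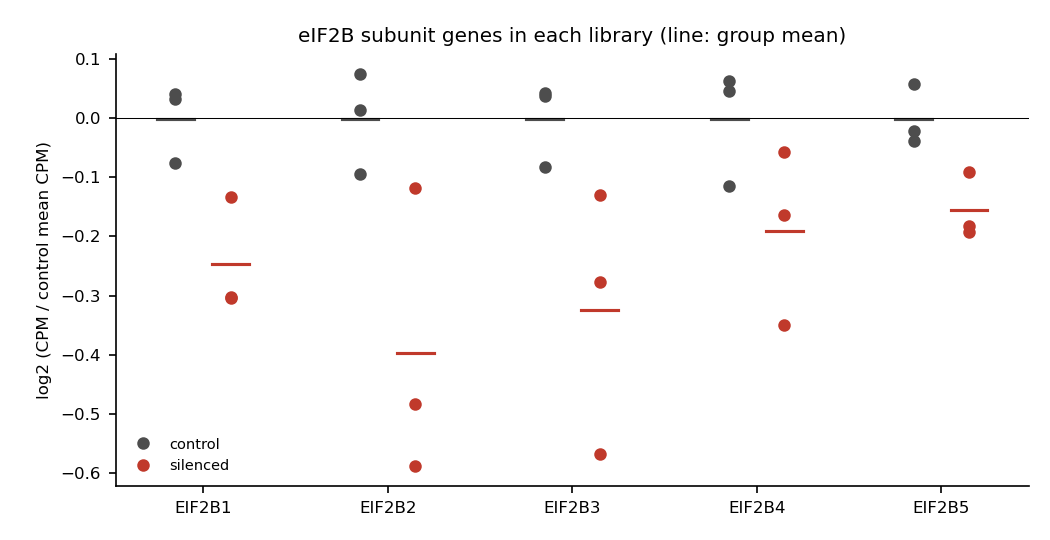
Level of the 5 eIF2B genes in each library as log2 of the CPM over the control mean, with points for libraries and lines for the mean of each group. Every silenced library lies below 0 for all 5 genes, and only EIF2B4 overlaps the controls. Of all genes tested, 36.6% did not overlap.

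Among the genes of eIF2 itself and the alternative tRNA carriers EIF2A and EIF2D, none of 5 passed the main edgeR test. By edgeR 1 had an unadjusted p under 0.05 (32.1% of all genes did), and DESeq2 called 1, EIF2S3. EIF2S3 (chrX:24054716-24077971, plus strand, GRCh38), the gamma subunit that holds GTP and the initiator tRNA, measured 201, 238 and 215 CPM in control libraries 1 to 3 and 256, 329 and 236 CPM in silenced libraries 1 to 3. The controls reached slightly above silenced library 3, so the groups overlapped, and silenced library 2 was the highest. The log2 fold change was 0.33 (SE 0.12, adjusted p = 0.0741 by edgeR and 0.0305 by DESeq2), and it passed without silenced library 3 (edgeR adjusted p = 0.0358). By edgeR EIF2S3 also passed with a replicate block (0.0128), genes of the type mRNA only (0.0414) and no filter on low counts (0.00239). EIF2D measured 56.8, 62.9 and 61.7 CPM in the controls and 53.6, 55.1 and 56.9 CPM after silencing with -0.13 on the log2 scale (SE 0.08). EIF2S1, the alpha subunit that the stress kinases phosphorylate, had 0.12, EIF2S2 -0.10 and EIF2A 0.04, all overlapping between groups.

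The 14 eIF3 genes were the largest group, and none passed the main edgeR test or DESeq2. By edgeR 4 (28.6%) had an unadjusted p under 0.05, 3 higher and 1 lower, where 32.1% of all genes did. Their median log2 fold change was 0.12, with 9 above 0 and 5 below. EIF3A, the largest subunit, had 0.19 (adjusted p = 0.114 by edgeR), EIF3H 0.20 (adjusted p = 0.0830) and EIF3M 0.24 (adjusted p = 0.0818), each with all silenced libraries above the controls. EIF3I was the one subunit whose libraries lay wholly below (-0.23, adjusted p = 0.0966 by edgeR). Libraries thus did not overlap for 4 of the 14 genes (28.6%), beside 36.6% of all genes tested (19.1% higher, 17.5% lower). With a replicate block EIF3A, EIF3H, EIF3M and EIF3I passed by edgeR (adjusted p 0.0436, 0.0392, 0.0387 and 0.0427), where 22.6% of all genes did. EIF3I also passed by edgeR with no filter on low counts (adjusted p = 0.0351). EIF3E, EIF3L, EIF3K, EIF3J and EIF3D had log2 fold changes of 0.19, 0.14, 0.14, 0.11 and 0.10, and EIF3F, EIF3B and EIF3G had -0.07, -0.07 and -0.09, all overlapping between groups. The summed level of the 14 genes was 3472 ± 159 CPM in the controls and 3539 ± 86.2 CPM after silencing (SD, n = 3).

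The extreme log2 fold changes of the complex belonged to the near-identical pair EIF3C (chr16:28688558-28735730, plus strand) and EIF3CL (chr16:28379579-28403879, minus strand; GRCh38), which encode the same scaffold subunit. EIF3C measured 611, 263 and 384 CPM in the controls and 500.2, 541 and 612 CPM after silencing, and EIF3CL measured 325, 716 and 655 CPM in the controls and 433, 478 and 313 CPM after silencing. The share of the pair's counts placed on EIF3C was 65.3%, 26.9% and 37.0% in the controls and 53.6%, 53.1% and 66.2% after silencing, so control library 1 resembled the silenced libraries and controls 2 and 3 did not. The fold changes were 0.40 for EIF3C (SE 0.22, adjusted p = 0.252 by edgeR) and -0.47 for EIF3CL (SE 0.24, adjusted p = 0.203). Without control library 1 both passed, with log2 fold changes of 0.77 and -0.75 and adjusted p of 0.0108 and 0.0116. Both also passed by edgeR with no filter on low counts (adjusted p 6.04e-05 and 2.15e-07). The sum of the pair, which does not depend on the assignment, was 985 ± 49.4 CPM in the controls and 959 ± 51.6 CPM after silencing, a log2 fold change of -0.04 (SE 0.07, adjusted p = 0.750 by edgeR).

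**Figure D4:**
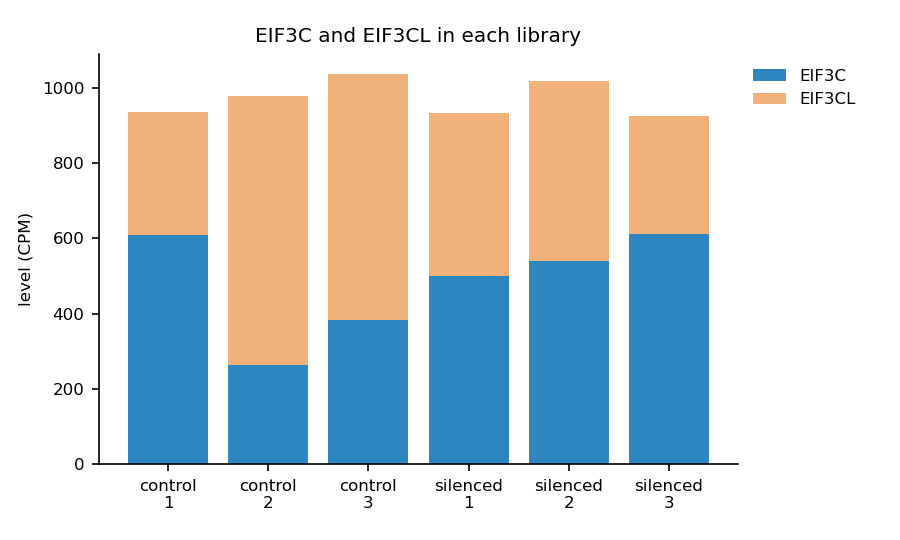
Stacked level in CPM of EIF3C and its near-identical copy EIF3CL in each library. The totals differ little between libraries, while the part assigned to EIF3C ranges from 26.9% to 66.2% of the pair's counts.

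Ratios between paralogs within a library do not depend on how libraries are scaled, and 7 pairs were compared by an exact permutation test, two-sided, whose smallest possible p with 3 against 3 libraries is 0.1. The log2 ratio of EIF4EBP1 to EIF4EBP2 was -0.85 ± 0.25 in the controls and -1.63 ± 0.27 after silencing (SD, n = 3), a difference of -0.79 (SE 0.21), and every silenced library was lower. EIF4G1 to EIF4G3 differed by -0.48 (SE 0.08) and EIF4G1 to EIF4G2 by -0.44 (SE 0.15), both without overlap. EIF1 to EIF1B differed by 0.37 (SE 0.07), higher in all silenced libraries. EIF5A to EIF5A2 differed by -1.10 (SE 0.43), without overlap but on few EIF5A2 counts. For these 5 pairs the exact p was 0.1 and 0.14 after adjustment over the 7 pairs, so none could pass. EIF4A1 to EIF4A2 differed by 0.09 (SE 0.06) and EIF4E to EIF4E2 by -0.14 (SE 0.11), with overlapping groups and an exact p of 0.2.

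**Figure D5:**
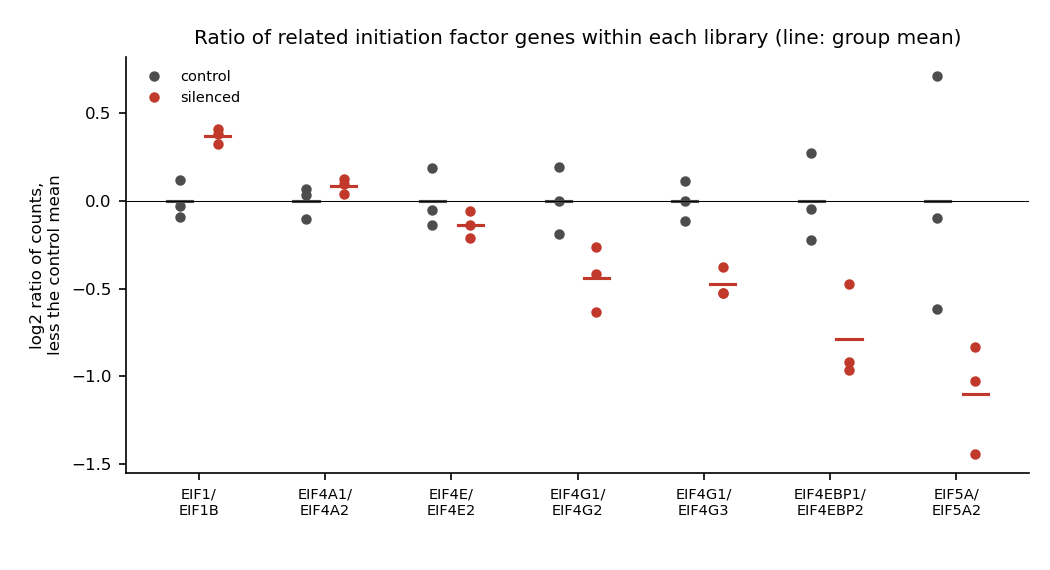
Log2 ratio of counts between 2 paralogs in each library, relative to the control mean of the pair, with points for libraries and lines for group means. The groups separate in 5 of 7 pairs, EIF4G1 over EIF4G3 and EIF4EBP1 over EIF4EBP2 among them, and overlap for EIF4A1 over EIF4A2 and EIF4E over EIF4E2.

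The genes that act on the initiation factors were read from 6 lists, of which 69 genes were tested and 12 (17.4%) passed, 5 higher and 7 lower, close to the share of all genes. Among 12 genes of the mTOR and MNK kinases, which act on the 4E-binding proteins and on eIF4E, 4 passed, 1 higher and 3 lower. That is 33.3% of few genes, beside 17% of all genes tested. The 12 genes had a median log2 fold change of -0.01, with 6 above 0 and 6 below. MTOR, the kinase itself, measured 245, 256 and 292 CPM in the controls and 175, 177 and 178 CPM after silencing, and all silenced libraries lay far below the controls. It fell by 0.58 on the log2 scale (SE 0.08), with an adjusted p of 0.00101 by edgeR. Its partners MLST8 and AKT1S1 fell too, with log2 fold changes of -0.46 (adjusted p = 0.00500) and -0.43 (adjusted p = 0.00854) by edgeR, and these 3 calls held with each library left out. MKNK2, a kinase of eIF4E, rose by 0.23 (adjusted p = 0.0394 by edgeR), a call lost with any single library left out (adjusted p from 0.0575 without control library 1 to 0.157 without silenced library 1).

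Among 12 genes of the eIF2 kinases and their phosphatase, 3 passed, 2 higher and 1 lower. That is 25% of few genes, beside 17% of all genes tested. PPP1R15A (GADD34), the stress-induced subunit that directs the phosphatase to eIF2 alpha, measured 39.9, 36.1 and 41.4 CPM in the controls and 66.7, 61.4 and 58.7 CPM after silencing, with the groups far apart. It rose by 0.67 on the log2 scale (SE 0.09), with an adjusted p of 0.000821 by edgeR, and passed with each library left out. PPP1R15B, its constitutive counterpart, rose by 0.26 (adjusted p = 0.0382 by edgeR), but passed only without control library 3, with 0.0537 to 0.131 (without silenced libraries 3 and 1) in the other cases. IMPACT, which holds back the kinase GCN2, fell by 0.80 (adjusted p = 0.00769 by edgeR) and passed with each library left out. Of the kinase genes themselves, EIF2AK3 (PERK) measured 19.4, 19.6 and 19.7 CPM in the controls and 22.8, 25.1 and 24.4 CPM after silencing without overlap and had a log2 fold change of 0.30 with an adjusted p of 0.0502 by edgeR. EIF2AK2 (PKR) had 0.24 (adjusted p = 0.124), also without overlap, and EIF2AK1 and EIF2AK4 had 0.06 and 0.02 with overlapping groups.

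Of 15 initiation cofactors, PDCD4 and BZW1 rose and PABPC4 fell, which is 20% of the list beside 17% of all genes tested. PDCD4, an inhibitor of the eIF4A helicase, had a log2 fold change of 0.38 (adjusted p = 0.0251) and BZW1, a mimic of eIF5, 0.31 (adjusted p = 0.0116) by edgeR. PABPC4, a poly(A)-binding protein, had -0.24 (adjusted p = 0.0386). BZW1 passed with each library left out. PDCD4 passed only without control library 2 or silenced library 3 (otherwise 0.0563, without control library 3, to 0.0805, without control library 1), and PABPC4 only without control library 2 (otherwise 0.0630, without control library 1, to 0.128, without silenced library 1). Of 13 elongation genes, DPH2, which takes part in the diphthamide modification of elongation factor eEF2, fell by 0.28 with an adjusted p of 0.0363 by edgeR, and it passed only without silenced library 2 (otherwise 0.0615, without control library 3, to 0.124, without silenced library 3). Of 9 mitochondrial factors TUFM fell by 0.22 with an adjusted p of 0.0363 by edgeR, a call lost with any library left out (0.0610, without control library 1, to 0.118, without silenced library 1). None of 8 termination and recycling genes passed by edgeR or DESeq2, and 3 had an unadjusted p under 0.05 by edgeR, beside 32.1% of all genes.

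The TOP-like run introduced with the printed windows was found in 17 of 43 members (39.5%), beside 21.1% of 27305 RefSeq promoters and 22.7% of the 9924 promoters of tested mRNA genes. Of the tested members, 16 carried the run, with a median log2 fold change of 0.12, 13 above 0 and 3 below. Those above 0 include EIF3C, whose value depends on its split with the unmatched EIF3CL (-0.04 for the sum of the pair). They also include EIF5A2, with counts of 10 to 41 per library, and EIF1 (0.01). The runs of EIF1, EIF3C and EIF5A2, and of the untested EIF1AY, begin 5 bases before the RefSeq start and are 5 bases long. These runs end before that start, so they lie outside the annotated mRNA. The 25 tested members without a run had a median of -0.13, with 8 above 0 and 17 below. Both of the members that rose carry the run, and of those that fell EIF4G1, EIF5A and EIF1B do not, as the windows show, while EIF4EBP1 was not matched. EIF3F has a run of 14 bases, EIF2S3 one of 12 and EIF3D one of 11, and their log2 fold changes were -0.07, 0.33 and 0.10. Among other tested mRNA genes the medians were -0.01 for 2239 genes that carry it and 0.00 for 7644 that do not, and the difference between the members and these genes was not tested. With each library left out in turn, the median of the members with the run ranged from 0.09 to 0.17 and that of the members without it from -0.16 to -0.11. The run was read at 1 RefSeq start per gene, and the start used in these cells was not measured, so a match is a description of the sequence only.

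The word CCAATAA, taken up because earlier results of these data had pointed to it, was searched on the sense strand of the 3′-UTRs of all coding transcripts of a gene in GENCODE 29. It occurred in 6 of 49 tested members (12.2%), a share like that of all tested mRNA genes (12.1% of 12031). The members were EIF2B1, EIF2B2, EIF2B3, EIF3F, EIF4E and EIF5B, whose median log2 fold change was -0.16 beside 0.04 for the members without it. In all tested mRNA genes the medians were -0.09 and 0.01. Because the word was picked from these same data, these medians are not an independent result. The sites of EIF3F, EIF4E and EIF5B, with log2 fold changes of -0.07, 0.19 and 0.00, are not shown. The 3 eIF2B sites are shown because these genes had the lowest means relative to control in their complex, so they were picked by their fall (word in capitals, 10 bases on each side, GRCh38).
EIF2B1, chr12:123620829-123620855, minus strand: cagctattcaCCAATAAaacaatactg
EIF2B2, chr14:75009556-75009582, plus strand: ctaggctctaCCAATAAaagccacttg
EIF2B3, chr1:44850849-44850875, minus strand: tatttatttcCCAATAAagaagggctt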

How the data were processed

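RNA-Seq of A549 cells was deposited as a table of gene counts for 3 control and 3 silenced libraries (Ion Proton RNA-Seq kit). The counts were made by the authors with MapSplice, whole numbers per gene without normalization, and the processing notes name GRCh37. The annotation, the strand setting and the handling of reads that match several places are not given in the sources used here. Libraries were grouped by their labels.

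The counts as deposited were tested with edgeR 4.0.16 (R 4.3.3): filterByExpr kept 15250 of 40173 genes, TMM factors, glmQLFit and glmQLFTest without covariates on all 6 libraries, with Benjamini-Hochberg adjustment over all genes tested and an SE taken from the fold change and the F statistic. The step was tested on simulated counts. The study's methods used DESeq, so DESeq2 1.42.0 was an alternative, beside other size factors, filters, thinning, a replicate block, each library left out, and counts of processed copies merged into the parent gene, which was chosen after seeing the data. Counting error alone did not account for the spread between replicates (chi-square divided by its degrees of freedom, 4.18 to 29.2). Paralog ratios used counts plus 0.5.

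Members, complexes, lists and words were chosen with earlier results of these data known. Values in every library were given for members past an adjusted p of 0.05, members of the paralog pairs, and the highest and lowest member of each complex. Of other translation genes, up to 4 per list past that threshold and the eIF2 kinases were named. Library values were printed for MTOR, PPP1R15A and EIF2AK3 only. Gene positions, exon lengths and 3′-UTRs came from GENCODE 29 (GRCh38) and starts from RefSeq (GRCh38.p14), matched by symbol.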

Additional observations from a re-analysis of the deposited data

How the results depend on the processing

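The count of initiation factor genes past the threshold changed with the genes and libraries entered. Against 6 (2 higher and 4 lower, 12.2%, all genes 17%), 14 passed with no filter on low counts (4 higher and 10 lower, 28.0%, all genes 13.3%). With genes of the type mRNA only, 11 passed (8 lower, 22.4%, all genes 23.3%). The members under an adjusted p of 0.01 were the 2 genes EIF5A and EIF4G1, a threshold at which the share of all genes was not counted. Without one library in turn, 2 to 7 passed (4.08% to 14.3%), 1 to 3 higher and 1 to 5 lower, while the share of all genes was 7.87% to 12.7%. Of other translation genes 2 to 3 were higher and 4 to 5 lower in these refits. Scaling by library size only gave 4 lower translation genes, where 16.7% of all genes passed in either direction. EIF5A and EIF4EBP2 passed an adjusted p of 0.05 in all 15 refits. The median of the eIF4E regulators, 0.02, was 0.12 with counts thinned to the smallest library and ranged from -0.10 to 0.14 without one library in turn. With copies merged into the parent gene, chosen after seeing the data, the same 6 genes passed, the eIF5 and eIF6 median was 0.00125, and EIF3C (-0.0384) and EIF4E (-0.00707) turned below 0. EIF1 ranged from -0.0367 to 0.0460 without one library in turn, below 0 without control library 1 or silenced library 2 (-0.0243). Beyond these constructions the cause was not tested.

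The main test did not take the replicate numbers to pair the libraries, since the labels do not say that they do. Deviations of same-numbered libraries correlated at 0.124, 0.149 and 0.067 for numbers 1 to 3, and those of other pairs at -0.112 to 0.0182. Every library correlated best with its own number, so these values are no reason to leave the pairing out. Whether the numbers mark a pairing was not tested. With a replicate block 15 members passed (6 higher and 9 lower, 30.6%), and so did 22.6% of all genes. The calls gained were EIF2B1, EIF2B2, EIF2B3, EIF2S3, EIF3A, EIF3H, EIF3I, EIF3M and EIF5AL1, so their place outside the main calls depends on this choice.

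Of 299 alternative values for 20 named members, 264 kept direction and side of the threshold, 16 lost the call, 15 gained it and 4 changed sign. The median SE over all genes tested was 0.12 on the log2 scale, which limits what smaller changes can show, and genes at a few CPM (EIF5A2, EIF4E, EIF4EBP3) were limited by depth.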

Other observations

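The introns of EIF4A1 and EIF4A2 hold genes of small nucleolar RNAs (snoRNAs), of which 6 were tested. SNORA48, in EIF4A1, had 47, 64 and 332 counts in control libraries 1 to 3 and 26, 20 and 30 in silenced libraries 1 to 3, and fell by 2.22 on the log2 scale (adjusted p = 0.0128 by edgeR's quasi-likelihood test), a call that held with each library left out, although without control library 3 the log2 fold change was -1.23. SNORA4, in EIF4A2, had 14, 33 and 280 counts in the controls and 7, 12 and 27 after silencing, with a log2 fold change of -2.47 (adjusted p = 0.0489 by edgeR) that lost its call without control library 3 (-0.73, adjusted p = 0.324) and without silenced library 1, 2 or 3 (adjusted p = 0.149, 0.116 and 0.0648). Control library 3 held most of the counts of all 6. The other 4, SNORD10, SNORA67, SNORA81 and SNORA63, did not pass, with log2 fold changes from -1.53 to -1.05 that ranged from -0.52 to 0.17 without control library 3. The host mRNAs had log2 fold changes of -0.06 (EIF4A1) and -0.15 (EIF4A2), neither past the test. Whether snoRNA and host differ was not tested.

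The letters CACGTG, a palindrome bound by MYC-family factors, occur in 11 of the 43 matched promoters of initiation factor genes (25.6%), beside 7.43% of all 27305 RefSeq promoters of the same length and 10.4% of those of tested mRNA genes. The 11 genes had a median log2 fold change of -0.07, with 5 above 0 and 6 below, and the 30 without it a median of 0.01. The letters TGATGNAA, searched on both strands, occur in 0 of 43, beside 3.67% of all promoters and 1.58% of those of tested mRNA genes.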
